A study of Homo sapiens with 4 samples.

Results

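The S100A10 ChIP peaks beside the centromeres of chromosomes 1, 4, 9, 16, 18, 20 and 22 were examined in PGCCs (polyploid giant cancer cells) with daughter cells. The peaks were taken by position, as those with a summit in 7 windows of the GRCh38 assembly, from 120 to 146 Mb on chromosome 1, 47 to 54 Mb on chromosome 4, 38 to 68 Mb on chromosome 9, 31 to 48 Mb on chromosome 16, 14 to 23 Mb on chromosome 18, 24 to 32 Mb on chromosome 20 and 10 to 20 Mb on chromosome 22. These windows were chosen with earlier results of these data known. The windows held 585 of the 4530 summits of the HCT116 list and 266 of the 1514 summits of the LoVo list. Summits that shared start and end were merged to 1 interval, which left 490 of 4148 intervals in HCT116 and 228 of 1380 in LoVo.

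HCT116 and LoVo are established human colorectal cancer cell lines. Both were treated with CoCl2, a chemical mimic of hypoxia, at 535.5 μM for 48 h according to the labels, while the study's methods give another concentration. Per the study, the treatment was repeated several times, and surviving giant cells recovered and formed daughter cells. The treated cultures then held giant cells together with a majority of small daughter cells, so a signal cannot be assigned to either. For each line 1 S100A10 ChIP library and 1 input library were sequenced, the latter from the same chromatin without antibody, and all 4 libraries came from treated cells, so no untreated or control-antibody library was compared here. The labels give a different lot of the S100A10 antibody for each line, which cannot be told apart from the line. With 1 library per arm no difference has a replicate check, no test was made, and the intervals given below cover counting error only.

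S100A10 is a small protein of the S100 family that pairs with annexin A2 at membranes, and in ChIP it is recovered with whatever DNA it lies near after crosslinking. The DNA beside human centromeres is largely heterochromatin, built of satellite repeats, duplicated segments and pseudogenes with few active genes. The blocks beside the centromeres of chromosomes 1, 9 and 16 are among the largest of the genome, and chromosome 22 is acrocentric, so its window also takes in short-arm DNA. A reference assembly usually carries fewer copies of such repeats than a cell does, and reads of many copies then stack at one place, in ChIP and input DNA alike. For this reason the input level at each summit, called the local background, is given beside the main peak heights. MACS, the peak caller, takes it as the highest of the genome-wide input mean and the input found in windows of several sizes around the summit. Here it is given as a multiple of the genome-wide mean of its own list.

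The only DNA sequence of a peak at hand came from an interval on a RefSeq promoter, and 1 of the 718 intervals met that condition. It lay in HCT116 at chr22:18733610-18733876, before FAM230E, a long non-coding RNA gene of a duplicated family on chromosome 22. Its summit at 18733793 had 20 ChIP tags and an input of 5 tags, a fold enrichment of 3.18, and its −log10 q was 1.92. The −log10 q is read here from the last score column of each list, whose name was damaged. The header of the lists says that q would not be calculated and would appear as −1, but the column holds no value below 0 in either list, so its reading as −log10 q rests on the column order of MACS. The RefSeq promoter (GRCh38.p14, chr22:18733685-18733984, plus strand) is shown to give the local base composition, with the 192 bases under the interval in capitals, which end 59 bases before the gene start.

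FAM230E promoter: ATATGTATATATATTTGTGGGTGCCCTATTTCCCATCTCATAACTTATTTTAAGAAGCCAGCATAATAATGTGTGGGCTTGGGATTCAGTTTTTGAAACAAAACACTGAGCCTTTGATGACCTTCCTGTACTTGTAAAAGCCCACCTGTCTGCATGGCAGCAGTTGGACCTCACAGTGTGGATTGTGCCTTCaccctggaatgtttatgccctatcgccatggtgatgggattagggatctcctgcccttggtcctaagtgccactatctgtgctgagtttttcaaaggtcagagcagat

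The bases GGAAT, which are the repeat unit of human satellites II and III, were searched for on both strands (GGAAT and ATTCC). They did not occur in the 192 bases under the interval and occurred 1 time in the lower-case part, while 12771 of 35116 RefSeq promoters of the same length (36.4%) held at least 1 match. No LoVo interval of the windows lay on a RefSeq promoter.

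Summits were crowded into the windows in both lines. The windows cover 107 Mb, or 3.47% of the assembled chromosomes measured to the last annotated gene, and held 15.7% of the summits on assembled chromosomes in HCT116 and 24.4% in LoVo. In HCT116 there were 5.47 summits per Mb in the windows, 0.779 in the rest of the same 7 chromosomes and 1.14 on the other chromosomes. In LoVo the corresponding densities were 2.49, 0.0899 and 0.340 per Mb. The windows were thus 7.02 times as dense as the rest of their chromosomes in HCT116 and 27.6 times as dense in LoVo. HCT116 had 2.20 times as many summits as LoVo inside the windows and 3.80 times as many outside. Within 1 Mb outside the window edges lay 17 summits in HCT116 and 2 in LoVo. All densities here use full lengths, from which unsequenced gaps of the assembly were not subtracted.

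Over all summits and full window lengths, the windows of chromosomes 20, 22 and 4 were the densest in each line. In HCT116 they held 147, 161 and 104 summits, or 18.4, 16.1 and 14.9 per Mb. In LoVo they held 58, 50 and 47 summits, or 7.25, 5.0 and 6.71 per Mb. The chromosome 1 window held 68 summits in HCT116 and 54 in LoVo, the nearest to equal numbers among the 7 windows, at 1.26 times as many in HCT116. On chromosome 16 there were 56 and 37 summits, on chromosome 9 there were 36 and 14, and on chromosome 18 there were 13 and 6. Chromosome 22 had the largest excess in HCT116, at 3.22 times the LoVo number. With a −log10 q of at least 2 the order changed. In HCT116 48 such intervals in the 7 Mb of chromosome 4 were then the densest, before 38 in the 8 Mb of chromosome 20 and 45 in the 10 Mb of chromosome 22. In LoVo chromosome 22 kept 5 intervals in its 10 Mb, a lower density than the 34 in 26 Mb of chromosome 1 or the 21 in 17 Mb of chromosome 16. LoVo summits of any score fell in 6 of the 26 whole Mb of chromosome 1, 4 of 17 on chromosome 16 and 5 of 10 on chromosome 22. They fell in 2 of 7 on chromosome 4 and 4 of 8 on chromosome 20. How the windows would rank over sequenced DNA alone was not computed.

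Against the rest of its own chromosome each window was denser in both lists. The ratio in HCT116 was 41.1 on chromosome 22, 34.0 on chromosome 4, 21.1 on chromosome 20 and 4.05 on chromosome 1. It was 2.45 on chromosome 18, 1.91 on chromosome 9 and 1.27 on chromosome 16. In LoVo the ratio was 204 on chromosome 20, 123 on chromosome 4, 102 on chromosome 22 and 17.1 on chromosome 1, and it lay between 5.94 and 14.5 on chromosomes 9, 16 and 18. The LoVo ratios rest on few summits, since the rest of chromosomes 20 and 22 held 2 each and that of chromosome 4 held 10. Ratios of both lines also use full lengths. Unsequenced gaps inside a window lower its ratio, and gaps in the rest of a chromosome raise it. The extent of these gaps was not measured, so the order of the ratios depends in part on where gaps lie. The low ratio of chromosome 16 in HCT116 went with 2.59 summits per Mb outside its window, the highest such value of the 7 chromosomes in either list.

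**Figure D1:**
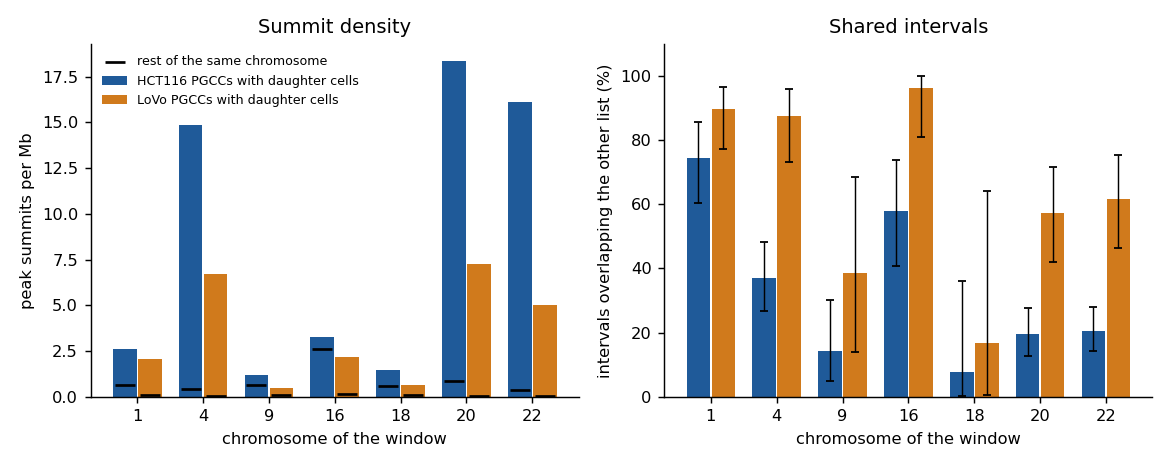
Left, peak summits per Mb in each window (bars) and in the rest of the same chromosome (black lines). Right, percent of intervals that overlap an interval of the other line by at least 1 bp, with 95% exact binomial intervals for counting error. HCT116 is in blue and LoVo in orange. The windows of chromosomes 4, 20 and 22 are the densest over their full lengths, assembly gaps included. The windows of chromosomes 1 and 16 are the only ones in which more than 50% of the intervals are shared in both lists. With an overlap of 50% of both intervals required, this holds for chromosome 1 alone, and the HCT116 share on chromosome 16 is 39.5%.

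Within the windows the intervals formed tight runs, defined after their positions were seen as 5 or more intervals less than 100 kb apart. In HCT116 22 runs held 434 of 490 intervals (88.6%), and in LoVo 16 runs held 178 of 228 (78.1%). On chromosome 1 the run at chr1:143184634-143267535 held 33 HCT116 intervals in 82.9 kb, of which 29 overlapped a LoVo interval. LoVo also had 33 intervals there, from 143184938 to 143267544, and all 33 overlapped an HCT116 interval. On chromosome 4 a run of 58 HCT116 intervals spanned chr4:49091380-49314733, while the LoVo run of 28 intervals ended at 49157500. Chromosome 16 carried 2 short runs in both lines, and HCT116 had another there with 5 intervals. The first, at chr16:34571528-34596158, held 14 HCT116 and 13 LoVo intervals, of which 12 and 13 overlapped the other list. The second, at chr16:46380704-46401674, held 10 and 8, of which 5 and 8 did.

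The runs on chromosomes 20 and 22 were mostly low. The HCT116 run with the most intervals on chromosome 22 was at chr22:10927113-11068139, with 42 intervals, a median of 10 ChIP tags and at most 14 at a summit. The LoVo run at chr22:10924705-11067649 had 15 intervals with a median of 15.5 tags and at most 20. On chromosome 20 the highest run was chr20:31051830-31242059, where 19 HCT116 intervals had a median of 22 tags and a maximum of 76. In LoVo 13 intervals of chr20:31053542-31241966 had a median of 40 tags and a maximum of 110, and all 13 overlapped an HCT116 interval. The median background of these runs was 2.07 times the mean in HCT116 and 7.53 times in LoVo. The only run on chromosome 18 was in HCT116, at chr18:15404778-15632315, with 9 intervals, a median of 11 tags and a maximum of 17.

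Peak height differed more between windows than between lines. A tag is 1 uniquely mapped read, extended to 260 bp in HCT116 and to 281 bp in LoVo, and since only 1 tag per position and strand was kept, at most 520 tags in HCT116 and 562 in LoVo can cover a base. The median summit had 12 tags in HCT116 (range 6 to 486), against 8 on the assembled chromosomes outside the windows, and 23 in LoVo (range 8 to 547), against 13 outside. The unplaced and unlocalized sequences of the assembly, which also hold much repeat DNA, had the same medians of 12 and 23 tags. By window, the medians in HCT116 were 85.5 tags on chromosome 16, 44.5 on chromosome 1 and 16 on chromosome 4, and they lay between 9 and 11 in the other 4 windows. In LoVo they were 185 on chromosome 16, 66 on chromosome 1 and 50 on chromosome 4, and lay between 12 and 16 in the others. The order of the 3 highest windows was the same in both lists. The LoVo ChIP library was the larger, with 19762814 tags against 16561424 in HCT116, and its longer extension also raises its tag numbers, so the levels of the lines are given side by side.

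The local background rose in the same windows. The median background was 1.59 times the genome-wide input mean in the HCT116 windows and 1.0 outside, and 3.51 times in the LoVo windows and 1.68 outside. On the unplaced and unlocalized sequences it was 1.59 times in HCT116 and 3.42 times in LoVo. On chromosome 16 it was 16.3 times the mean in HCT116 and 47.8 times in LoVo. On chromosome 1 it was 3.86 and 11.2 times, and on chromosome 4 it was 2.28 and 11.1 times. In the windows of chromosomes 9, 18, 20 and 22 it lay between 1.0 and 1.59 in HCT116 and between 1.0 and 2.17 in LoVo. A background of at least 10 times the mean was met at 64 HCT116 summits (10.9%, against 1.28% outside) and at 90 LoVo summits (33.8%, against 9.58% outside).

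The background was often set by the input at the summit itself. MACS took the background from the fragment-sized input window at the summit where it equals a whole number of input tags, here within 0.01, although other windows can give such a number by coincidence. This held for 225 of 585 HCT116 summits (38.5%, 95% interval 34.5 to 42.5%) and for 15.3% outside the windows. It held for 152 of 266 LoVo summits (57.1%, interval 51.0 to 63.2%) and for 33.3% outside. On the unplaced and unlocalized sequences it held for 37.3% in HCT116 and 57.0% in LoVo. On chromosome 16 the shares were 64.3% in HCT116 and 89.2% in LoVo, and on chromosome 18 they were 15.4% and 16.7%.

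**Figure D2:**
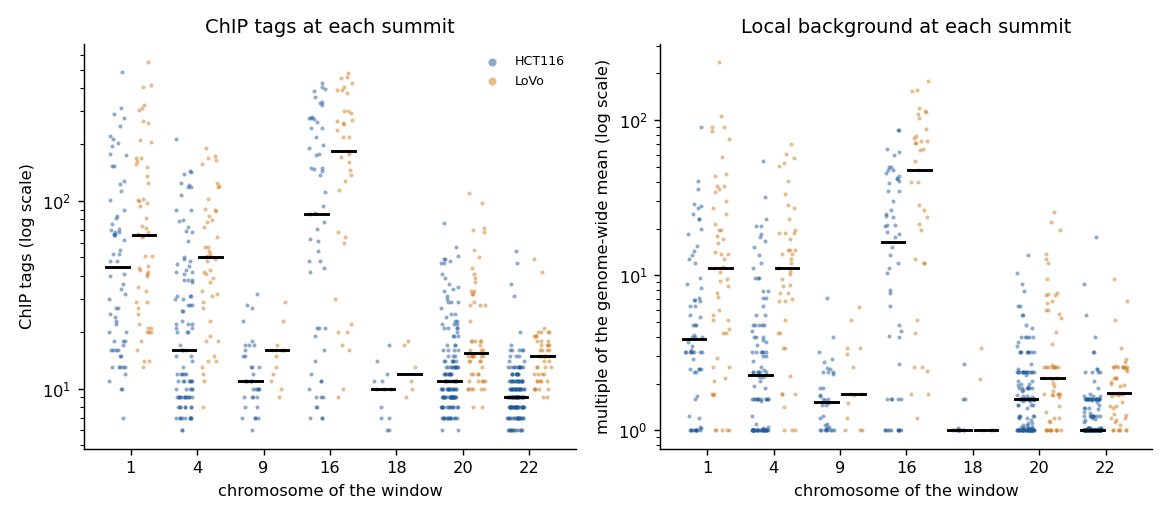
ChIP tags at each summit (left, log scale) and local background as a multiple of the genome-wide input mean (right, log scale) by window, with each point 1 summit and black lines at the medians. HCT116 is in blue and LoVo in orange. In both panels the windows of chromosomes 16, 1 and 4 reach highest, and those of chromosomes 9 and 18 stay low.

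Fold enrichment, which is the scaled ChIP pileup over the local background with 1 added to each, behaved differently in the lines. Its median was 4.05 in the HCT116 windows and 3.25 outside, and 2.88 in the LoVo windows and 3.10 outside. Over the 585 HCT116 summits the rank correlation (Spearman) of fold enrichment with background was 0.0764, and over the 266 LoVo summits it was −0.705. Tags and background correlated at 0.783 in HCT116 and 0.933 in LoVo. These correlations are descriptions across summits of 1 pair of libraries, and background enters the fold enrichment by construction. The chromosome 16 window had the highest median of tags in LoVo and the lowest median fold enrichment of its windows, at 2.33, while in HCT116 its median fold enrichment was 4.28.

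**Figure D3:**
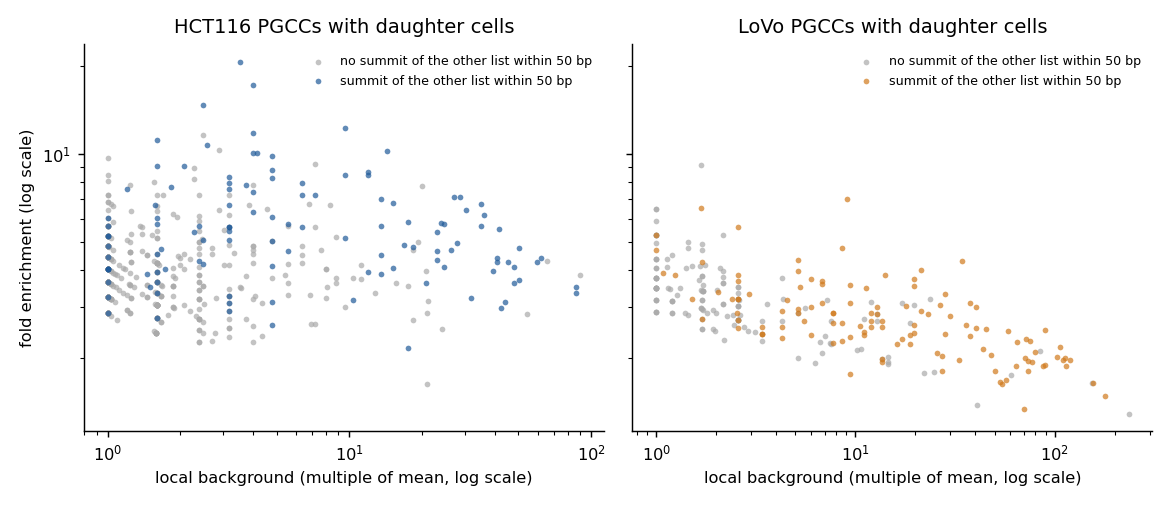
Fold enrichment (vertical, log scale) against local background as a multiple of the genome-wide input mean (horizontal, log scale) for each summit of the windows in HCT116 (left) and LoVo (right). Coloured points have a summit of the other line within 50 bp. The LoVo points fall from left to right, the HCT116 points do not, and most coloured points lie at a raised background.

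The window summits scored higher than other summits on assembled chromosomes, and about as high as those on the unplaced and unlocalized sequences. A −log10 q of at least 2 was reached by 287 HCT116 summits in the windows (49.1%, interval 44.9 to 53.2%), where 20.7% of all summits on assembled chromosomes and 15.4% of those outside the windows reached it. In LoVo 103 summits reached it (38.7%, interval 32.8 to 44.9%), against 23% of all and 17.9% outside. On the unplaced and unlocalized sequences it was reached by 406 HCT116 summits (50%, interval 46.5 to 53.5%) and 158 LoVo summits (37.4%, interval 32.7 to 42.2%). On chromosome 1 it was 61 of 68 summits in HCT116 and 39 of 54 in LoVo, and on chromosome 16 it was 45 of 56 and 29 of 37. On chromosome 22 it was 45 of 161 and 5 of 50, and on chromosome 18 it was 7 of 13 and 0 of 6. These scores compare ChIP with input in 1 pair of libraries.

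By −log10 q, chromosomes 1 and 16 held most of the window summits among the highest of each list. Among the 100 summits with the highest −log10 q, the windows held 47 in HCT116, of which 24 were on chromosome 16, 20 on chromosome 1 and 3 on chromosome 4. They held 33 in LoVo, of which 16 were on chromosome 1, 15 on chromosome 16, 1 on chromosome 4 and 1 on chromosome 20. None of these summits lay in the windows of chromosomes 9, 18 or 22. Ranked by fold enrichment, the windows held 23 of the highest 100 in HCT116, with 14 on chromosome 1 and 2 on chromosome 16. They held 15 in LoVo, with 7 on chromosome 1, 4 on chromosome 22, 3 on chromosome 20, 1 on chromosome 9 and 0 on chromosome 16. Of all summits, 585 of 4530 in HCT116 and 266 of 1514 in LoVo lay in the windows. The 15 in LoVo were thus not above the windows' share of the whole list. The unplaced and unlocalized sequences gave 32 in HCT116 and 39 in LoVo of the highest 100 by −log10 q, and 54 and 24 by fold enrichment.

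The lists overlapped more in the windows than on the rest of the assembled chromosomes. In HCT116 151 of 490 intervals (30.8%, interval 26.8 to 35.1%) overlapped a LoVo interval by at least 1 bp, where 9.45% of all intervals on assembled chromosomes and 5.95% of those outside the windows did. In LoVo 166 of 228 intervals (72.8%, interval 66.5 to 78.5%) overlapped an HCT116 interval, against 35.7% of all and 24.9% outside. On chromosome 16 the shared intervals were 22 of 38 in HCT116 (57.9%) and 26 of 27 in LoVo (96.3%). On chromosome 1 they were 38 of 51 (74.5%) and 43 of 48 (89.6%), and on chromosome 4 they were 31 of 84 (36.9%) and 35 of 40 (87.5%). In the windows of chromosomes 20 and 22, where HCT116 intervals were most numerous, 19.5% and 20.5% of them were shared, and 57.4% and 61.7% of the LoVo intervals were. With 50% of both intervals required, these shares were 8.47% and 9.93% in HCT116 and 21.3% and 31.9% in LoVo. With a −log10 q of at least 2 in both lists, the shares on chromosome 22 were 4.44% in HCT116 and 40.0% in LoVo. Chromosome 18 had 1 shared interval in each list. On the unplaced and unlocalized sequences 37.0% of HCT116 and 71.3% of LoVo intervals were shared, close to the window values.

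Summits also met closely. A summit of the other line lay within 50 bp of 119 HCT116 summits (20.3%), where 6.37% of all summits on assembled chromosomes and 3.77% of those outside the windows had one. In LoVo it was 119 of 266 (44.7%), against 21.6% of all and 14.2% outside. On the unplaced and unlocalized sequences the shares were 20.6% in HCT116 and 39.5% in LoVo. The matches numbered 39 on chromosome 1, 32 on chromosome 16, 25 on chromosome 4, 11 on chromosome 20, 9 on chromosome 22, 2 on chromosome 9 and 1 on chromosome 18. Sorted by local background, in classes chosen after the values were seen, the matched share in HCT116 was 5.95% below 1.5 times the mean, 13.5% from 1.5 to 3 times, 37.1% from 3 to 10 times and 71.9% at 10 times or more. In LoVo it was 7.69%, 20.3%, 62.0% and 76.7%. In HCT116 the shared intervals had a median background of 2.49 times the mean and the others 1.08, and in LoVo the values were 7.50 and 1.20. What part the background had in the agreement was not tested.

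The 119 matched pairs, each the nearest summit of the other in both directions, allowed the lines to be set side by side at the same places. Their median distance was 13 bp, 46 pairs lay within 10 bp, and 1 pair had the same position. The median number of tags was 55 in HCT116 and 68 in LoVo, with more tags in LoVo in 103 pairs. The median background was 4.78 times the mean in HCT116 and 13.7 times in LoVo, and it was higher in LoVo in 116 pairs, by a median of 2.21 times. Fold enrichment was higher in HCT116 in 110 of 119 pairs, with medians of 5.15 and 2.59 and a median ratio of 2.07 (range 0.560 to 5.56). It was higher in HCT116 in all 32 pairs on chromosome 16, 36 of 39 on chromosome 1, 24 of 25 on chromosome 4 and 10 of 11 on chromosome 20, but in 5 of 9 on chromosome 22.

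Tags and background kept nearly the same order in both lines over the 119 pairs, with a Spearman correlation of 0.980 for tags and 0.939 for background. For fold enrichment it was 0.224. The pairs were selected for being present in both lists and lie in runs, so they are neither independent nor typical of all summits, and the correlations are given as descriptions.

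**Figure D4:**
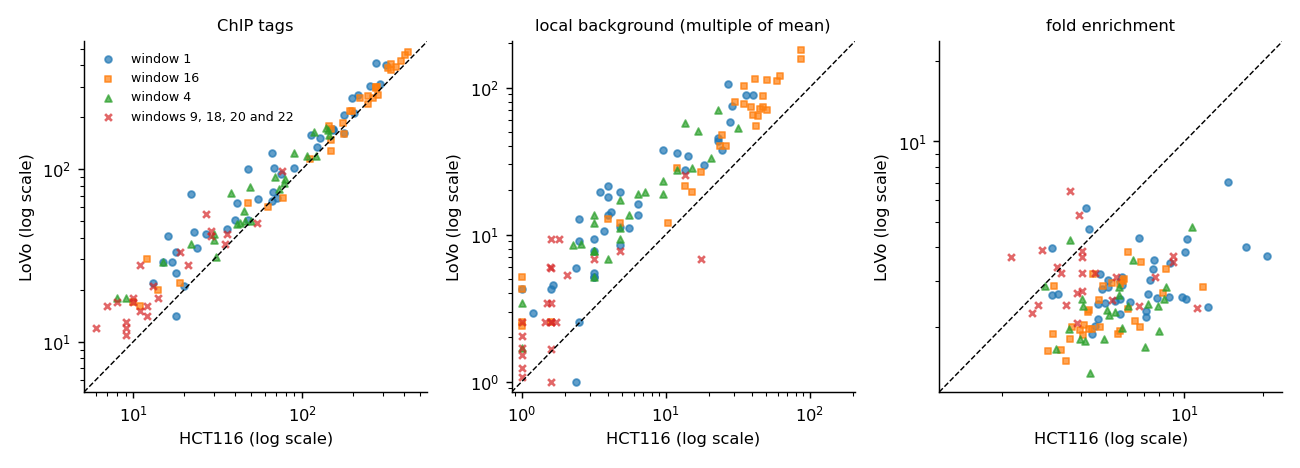
The 119 matched summits with HCT116 horizontal and LoVo vertical, for ChIP tags, local background as a multiple of the genome-wide input mean, and fold enrichment, all on log scales, with the line of equality dashed. Tags lie close to or above the line, background lies above it in 116 pairs, and fold enrichment lies below it in 110 pairs.

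Among the overlapping pairs of the windows, the 5 that ranked highest by the smaller −log10 q of the lines all lay on chromosome 1. The first was chr1:143232715-143233305 in HCT116 and chr1:143232755-143233235 in LoVo. At its HCT116 summit 214 ChIP tags stood against 18 input tags, a fold enrichment of 10.2, and at its LoVo summit 268 stood against 40, a fold enrichment of 4.30. It had the highest −log10 q of the LoVo list, at 47.9, and the fourth highest of the HCT116 list, at 119. The summits were 5 bp apart. Of the rest, the pair at chr1:143254296-143254940 had the second highest −log10 q in LoVo (35.9), with 124 tags, a background of 9.11 times the mean and a fold enrichment of 7.03. In HCT116 it had 66 tags, a background of 2.49 times and a fold enrichment of 14.7. The pair at chr1:143214338-143215364 had 314 tags against 45 input tags in HCT116 and 403 against 105 in LoVo. The pair at chr1:143202485-143202935 had 113 tags against 5 input tags in HCT116, a fold enrichment of 17.2, and 158 against 25 in LoVo, a fold enrichment of 4.01. For this pair the exact interval of the ratio of scaled ChIP to input was 8.50 to 64.1 in HCT116 and 2.70 to 6.58 in LoVo, for counting error only.

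The highest pileups of both lists stood 92 bp apart on chromosome 1. At chr1:125178808-125180699 the HCT116 summit at 125180241 had 486 tags of at most 520, and the input there had 113 tags, 90.0 times the genome-wide mean. At chr1:125179915-125180576 the LoVo summit at 125180333 had 547 tags of at most 562, with an input of 276 tags, 236 times the mean. Fold enrichment reached 3.86 in HCT116 but 1.30 in LoVo. The −log10 q was 113 and 1.54, which placed the summit at rank 7 of its list in HCT116 and 469 in LoVo. Near the ceiling set by 1 tag per position, a further increase of ChIP or input cannot show in full.

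On chromosome 16 the interval with the highest −log10 q was chr16:34582692-34583903 in HCT116. Its summit at 34583487 had 334 ChIP tags and 44 input tags, a fold enrichment of 6.73, and its −log10 q was 135, the second highest of the list. In LoVo the highest was chr16:34576243-34576659, with 218 ChIP tags, 47 input tags, a fold enrichment of 2.99, and its −log10 q was 22.7. The HCT116 interval over it, chr16:34576199-34576695, had 198 ChIP and 30 input tags and a fold enrichment of 5.80, with summits 10 bp apart. The run from 46380704 to 46401674 held 4 of the 5 window intervals with the highest pileup in HCT116 and 3 of the 5 in LoVo. At chr16:46388539-46391520 the HCT116 summit at 46390636 had 425 ChIP and 109 input tags, and the LoVo summit 11 bp away at 46390625 had 479 ChIP and 210 input tags. The ratio of scaled ChIP to input was 3.52 in HCT116 (exact interval 2.85 to 4.39) and 1.49 in LoVo (1.27 to 1.76). At chr16:46398295-46401674 the 4 HCT116 summits had 281 to 384 tags and fold enrichments of 4.40 to 5.66.

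The peaks that led the other windows were smaller. On chromosome 4 the HCT116 interval chr4:49120767-49121410 had 121 ChIP and 12 input tags and a fold enrichment of 8.49. The LoVo interval chr4:49101374-49101750 had 79 tags, a background of 8.61 times the mean and a fold enrichment of 4.75, and the HCT116 interval chr4:49101342-49101814, with its summit 14 bp away, had 49 tags, a background of 2.57 times and a fold enrichment of 10.7. On chromosome 20 the same place led both lists, with 51 ChIP and 5 input tags at the HCT116 summit 31068249 and 110 and 23 at the LoVo summit 31068324. Their fold enrichments were 7.85 and 3.04.

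On chromosome 22 the HCT116 interval chr22:12693385-12694123, in the pseudogene DUX4L44, had 36 ChIP and 2 input tags and a fold enrichment of 11.2. The LoVo interval at the same place, with its summit 30 bp away, had 42 tags, a background of 9.39 times the mean, a fold enrichment of 2.37, and its −log10 q was 0.674. LoVo was led instead by chr22:11369614-11369948, with 49 ChIP and 8 input tags and a fold enrichment of 3.67. There the order of the lines was turned, since the HCT116 summit 32 bp away had 54 ChIP and 22 input tags and a fold enrichment of 2.16.

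The windows of chromosomes 9 and 18 were led by peaks whose local background was the genome-wide mean, which is its lowest possible value, so the input there was at or below that mean. On chromosome 9 the HCT116 interval chr9:67723581-67724131 had 23 tags, a fold enrichment of 9.66 with −log10 q 13.6, at a background of 1.0 times the mean. The LoVo interval chr9:43804204-43804527 had 16 tags and a −log10 q of 2.82, the only LoVo summit of that window at 2 or more. On chromosome 18 the leading intervals were chr18:15548398-15548860 in HCT116, with 17 tags and a −log10 q of 7.93, and chr18:15552623-15552988 in LoVo, with 13 tags and a −log10 q of 1.10. None of these 4 was shared.

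Few of these peaks lay in genes. Of the 490 HCT116 intervals 32 overlapped a RefSeq gene body (6.53%, interval 4.51 to 9.09%), against 53.3% of the intervals outside the windows. Of the 228 LoVo intervals 9 did (3.95%, interval 1.82 to 7.36%), against 39.8% outside. The share of bases in gene bodies was not computed inside or outside the windows. These percents therefore do not show whether the peaks favour or avoid genes. The windows hold 1265 RefSeq genes, of which 227 are protein-coding, and the intervals touched 26 in HCT116 and 9 in LoVo. In HCT116 these were 14 pseudogenes, 7 long non-coding RNA genes, 4 protein-coding genes and 1 other RNA gene. In LoVo they were 7 pseudogenes, 1 long non-coding RNA gene and 1 protein-coding gene. The 4 protein-coding genes of HCT116 were ABHD12, a lipid hydrolase, with 6 tags, GABRB1, a GABA-A receptor subunit, with 7 tags, and the unnamed loci LOC107987020 with 11 tags and LOC124904970 with 10 tags. ABHD12, GABRB1 and LOC107987020 had a −log10 q of 0 to 0.0148.

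The 7 genes touched in both lists were DUX4L34, DUX4L44, DUX4L50, FRG1FP, FRG1GP, LINC00537 and LOC124904970. In FRG1GP the HCT116 and LoVo intervals lay apart without overlapping, and so did those in DUX4L50. None of the 9 LoVo genes had a summit with a −log10 q of at least 2, so no gene was touched in both lists at that limit. DUX4L34, DUX4L44 and DUX4L50 are pseudogene copies of DUX4, a transcription factor gene of the early embryo that sits in a subtelomeric repeat, and DUX4L50 lies within LINC00537, with which it shared its best interval in each line. FRG1FP and FRG1GP are pseudogene copies of FRG1, a neighbour of that repeat. In HCT116 FRG1FP had 2 intervals with a best summit of 10 tags and a fold enrichment of 4.09, and in LoVo 1 interval with 12 tags and a fold enrichment of 3.91. LINC00537 and DUX4L50 had a best summit of 13 tags in HCT116 and 16 in LoVo, with fold enrichments of 3.07 and 2.46. Of the 7 genes, DUX4L44 alone had a best summit of more than 20 tags in either line. The genes with most intervals in HCT116 were the non-coding loci LOC105379418 on chromosome 22 and LOC101927209 on chromosome 4, with 3 each, and in LoVo FRG1BP, another FRG1 pseudogene, with 2.

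Gene families with many members beside centromeres were listed by symbol, together with the LINC genes of long intergenic non-coding RNAs, and 25 of the 26 groups have genes in the windows. An interval touched a gene in 4 of these groups. Of the 17 DUX4 copies in the windows 4 were touched in HCT116 and 3 in LoVo, and of the 9 FRG1 copies 2 and 3 were. Among these touched copies, DUX4L44 in HCT116 alone had a summit with a −log10 q of at least 2. The LINC genes gave 1 of 37 in each line, and FAM27, represented by FAM27E4 with 17 tags and a fold enrichment of 7.25 in HCT116, gave 1 of 5 in HCT116 and 0 in LoVo. Over all genes of the windows, 26 of 1265 were touched in HCT116 and 9 of 1265 in LoVo, and with few genes in most groups no touched gene says little about a group.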

How the data were processed

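S100A10 ChIP and input DNA from CoCl2-treated HCT116 and LoVo were used, with 1 library of each kind per line. Per the file headers, the authors called peaks with MACS2 2.1.0.20150420 on uniquely mapped, de-duplicated reads at a p-value cutoff of 0.005 (the study's methods give a less strict one), scaling the ChIP library to the input by 0.903 in HCT116 and 0.654 in LoVo. The deposited signal is the scaled pileup of extended tags at each summit, the deposited ratio is the fold enrichment, and the authors also deposited −log10 p and −log10 q. Both score columns had lost their names and were read in the order MACS writes them, although the headers say that q would not be calculated. The aligner is not given in the sources used here, and neither is the build. Positions were taken as GRCh38 because of the names of the unplaced sequences.

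Whole tags were the pileup divided by the scale, and the local background was (pileup + 1) / fold enrichment − 1. An input tag count is given where that background is a whole number within 0.01. Genes and promoters came from RefSeq GRCh38.p14. Intervals named were drawn from the highest of each window and list by −log10 q, and from the 5 highest of the windows in each list by pileup and background. Pairs named were drawn from the 5 highest of all windows and the highest of each window. Not every interval or pair that met these rules is given in the text. Genes named are those touched in both lists, those with most intervals, and those in a named interval. ABHD12, GABRB1, LOC107987020, FAM27E4 and FAM230E were named after their values were seen. The windows, gene families and rules were chosen with earlier results of these data known. Shares have exact Clopper-Pearson 95% intervals. Scripts were tested on simulated data. The input libraries had 14962190 tags in HCT116 and 12925105 in LoVo. The alternatives were limits on q and fold enrichment, merging, overlap and distance limits, other ranks and wider gene bodies. Satellite annotation, assembly gaps and peak sequences outside promoters were not analysed here. Python 3.11.15, pandas 2.3.3 and scipy 1.17.1 were used.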

Additional observations from a re-analysis of the deposited data

How the results depend on the processing

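No value of these libraries has a replicate error, many window summits rest on about 10 tags, and heights near the ceiling of 1 tag per position are compressed. Over all 7 windows, 36 of 68 recomputed values stayed within the counting interval or within 1.5 times the reported count, 32 moved further, and no called direction turned. Of 272 values for single windows 172 stayed and 100 moved. Trimming the windows by 1 Mb at both ends moved 4 of these 100, among them on chromosome 20 the matched share in HCT116, to 3.74% in place of 7.48%, and the LoVo overlap, to 41.2% in place of 57.4%. With a −log10 q of at least 2, the intervals fell to 223 in HCT116 and 89 in LoVo, the median pileup rose from 10.84 to 23.49 and from 15.04 to 64.09, the median background rose from 2.0 to 3.12 tags and from 4.11 to 22, and the genes touched fell from 26 to 7 and from 9 to 0. With a fold enrichment of at least 5, 111 intervals remained in HCT116 and 12 in LoVo, and merging within 1 kb left 307 in HCT116. Requiring 50% of both intervals left 19.6% of HCT116 and 42.1% of LoVo intervals shared, and with a −log10 q of at least 2 in both lists 86.5% of LoVo intervals were shared. That limit lowered the HCT116 share on chromosome 22 from 20.5% to 4.44%, the LoVo share there from 61.7% to 40.0%, the share on chromosome 1 in HCT116 from 74.5% to 57.4%, and those on chromosome 9 to 0. Summits of the other line lay within 10 bp at 7.86% and 17.3% of summits, within 200 bp at 30.3% and 67.3%, and within 50 bp at 25.4% and 70.9% with that q in both lists. Whole tags in place of pileup gave medians of 12 and 23. The HCT116 background was 1.62 with the highest summit per interval and 1.59 as a multiple of the mean. The HCT116 share at a −log10 q of at least 2 exceeded the share outside by 33.7 percentage points, or 40.4 against the rest of the 7 chromosomes only. Ranked by fold enrichment, 23 and 15 of the highest 100 lay in the windows, in place of 47 and 33. Protein-coding genes alone numbered 4 and 1, and bodies widened by 5 kb gave 62 and 26 genes. Alternatives added after seeing the data left fold enrichment higher in HCT116 in 87.1% to 97.3% of matched pairs, the lowest where both summits had under 100 tags and the highest with a −log10 q of at least 2 in both lists, and the background higher in LoVo in 95.7% to 98.6%. Some of the counted moves are only changes of unit, from scaled pileup to whole tags or from input tags to a multiple of the mean. Among the 100 moves for single windows these were 7 and 6. The causes of the other shifts were not tested.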
